A study of Mus musculus with 10 samples.

Results

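The 8 genes described here encode adhesion and scaffold proteins of the node of Ranvier and of the paranode and juxtaparanode beside it. They were chosen by name, as Cntnap1, Cntnap2, Cntn1, Cntn2, Nfasc, Ank3, Sptbn4 and Gldn, out of 24391 gene names in the count tables, 19538 of them with counts in 1 or more mice. RNA sequencing was done on the hippocampus of male mice aged 10 to 14 weeks, of the strain printed in the methods as C56BL/6J, with no drug treatment and no engineered allele described for any group. In 4 SAH mice, subarachnoid hemorrhage was produced under isoflurane by pushing a filament from the stump of the external carotid artery through the wall of the circle of Willis on 1 side, and only mice whose cerebral blood flow dropped were kept. In 3 Sham mice the filament was stopped at the point of resistance and withdrawn, and 3 Naive mice had no surgery. Both hippocampi of a mouse were pooled 4 days after surgery, so the side of the perforation and the opposite side were not separated. Control denotes the Sham and Naive mice together (n = 6).

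Myelinated axons conduct by renewing the impulse at nodes of Ranvier, short gaps between myelin segments where sodium channels are packed. At the paranode, on each side of the node, the myelin loops of the oligodendrocyte are fastened to the axon by a complex of contactin-1 (Cntn1) and Caspr (Cntnap1) on the axon and the glial form of neurofascin (Nfasc) on the myelin. At the juxtaparanode, under the compact myelin, contactin-2 (Cntn2) and Caspr2 (Cntnap2) hold potassium channels in place. In the node itself, ankyrin-G (Ank3) and βIV-spectrin (Sptbn4) anchor the channels and the neuronal form of neurofascin to the axon's cytoskeleton, as they also do at the axon initial segment, and gliomedin (Gldn) is the Schwann cell ligand of neurofascin at nodes of peripheral nerves. Of the 8 genes, Nfasc and Cntn2 are transcribed in neurons and in oligodendrocytes. Cntnap1, Cntnap2, Cntn1, Ank3 and Sptbn4 are described here by their place on the axon, and the cells transcribing them were not separated.

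In the mm9 build the 8 genes lay on 7 chromosomes. Nfasc (chr1:134461267-134638374, minus strand) and Cntn2 (chr1:134406002-134439517, minus strand) were neighbours, with 21749 bases between them. The others were Cntnap1 (chr11:101037431-101052034, plus), Cntnap2 (chr6:45010060-47251370, plus), Cntn1 (chr15:91881596-92172398, plus), Ank3 (chr10:68996456-69490184, plus), Sptbn4 (chr7:28141402-28231608, minus) and Gldn (chr9:54134293-54189584, plus). No exon of the 8 genes shared bases with an exon of another gene name. The count of a gene adds up all its isoforms, so the glial and the neuronal form of neurofascin cannot be told apart. The longest exon of Ank3 in the annotation used had 3605 bases.

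The 250 bases before the annotated 5′ end of Nfasc and of Cntnap1, the genes past the threshold in a comparison of all mice described here, are shown as they stand in mm9, read 5′ to 3′ along the strand of the gene. Capitals mark the GC box, GGGCGG on either strand, which SP1 proteins are known to bind.
Nfasc, chr1:134638375-134638624, minus strand: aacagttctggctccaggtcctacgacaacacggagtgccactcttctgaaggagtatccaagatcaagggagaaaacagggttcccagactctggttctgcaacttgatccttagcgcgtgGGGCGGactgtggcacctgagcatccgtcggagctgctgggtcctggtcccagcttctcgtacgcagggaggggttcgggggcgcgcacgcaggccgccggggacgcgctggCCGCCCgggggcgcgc
Cntnap1, chr11:101037181-101037430, plus strand: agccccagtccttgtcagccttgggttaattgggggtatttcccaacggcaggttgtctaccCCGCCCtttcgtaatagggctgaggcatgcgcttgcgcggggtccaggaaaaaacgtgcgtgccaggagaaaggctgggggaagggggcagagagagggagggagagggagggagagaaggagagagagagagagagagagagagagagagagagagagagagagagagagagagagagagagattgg
The Nfasc stretch held 2 such matches in 64.8% GC, and the Cntnap1 stretch held 1 in 57.6% GC and ended in a long run of GA repeats. Among the 8 genes 4 had a match (also Cntnap2 and Sptbn4), while 58.1% of the 14983 stretches of this length before tested genes had one, with a median GC of 60.0%. Of 2 further motifs, searched because the study examined interferon, STAT and SP1 motifs, the interferon response element (GAAA, any 2 bases and GAAA again, on either strand) was found before 0 of the 8 genes and before 2.54% of all, and the STAT motif TTCNNNGAA before 0 of the 8 and 5.63% of all. These are letters in a fixed window, and 1 annotated start was used per gene.

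Counts summed to between 19743388 and 27254655 per mouse, and 17216 to 17721 genes were detected in each. The lowest chi-square per degree of freedom between libraries was 3.62, so none was a copy of another. SAH mouse 3 stood apart, with values of 15.32 to 26.95 against the other 9 libraries, and SAH mouse 4 did so less, with 9.5 to 16.48. The other 8 libraries had values of 3.62 to 9.84 among themselves. Calls that changed without SAH mouse 3 or 4 are given beside the gene. The 6 genes taken as marks of hippocampal neurons (Neurod6, Prox1, Wfs1, Fibcd1, Spink8 and Iyd) were detected in all groups, with a summed level of 704.4 to 746.6 CPM in SAH and 697.6 to 771.5 CPM in Control, where CPM are counts scaled by library size, the sizes being adjusted by TMM. Animals were separate, so the error given is that between mice.

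Per exon length, 7 of the 8 genes were well expressed in the hippocampus and Gldn was barely expressed. In TPM, counts divided by exon length and scaled to a common sum, which allows levels of different genes to be compared, Cntn1 was highest at 263.5 ± 6.23 TPM (SD, n = 10 mice), above 96.4% of the genes with counts. Cntnap1 came next at 143.4 ± 9.05 TPM, so that the axonal partners of the paranodal complex were the most abundant of the 8 messages. Nfasc (98.7 ± 14 TPM) and Ank3 (94.4 ± 5.35 TPM) had overlapping ranges and were ordered differently by group, Nfasc being above Ank3 in 3 of 3 Naive, 2 of 3 Sham and 0 of 4 SAH mice. Sptbn4 (59.92 ± 4.12 TPM) and Cntnap2 (56.13 ± 4.76 TPM) also had overlapping ranges, with Sptbn4 the higher in 8 of 10 mice. Cntn2 followed at 39.68 ± 2.84 TPM in ranges clear of its neighbours. Gldn, at 1.352 ± 0.246 TPM, lay above 28.1% of the genes with counts. The order was the same in RPKM, computed from TMM-scaled library sizes.

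**Figure D1:**
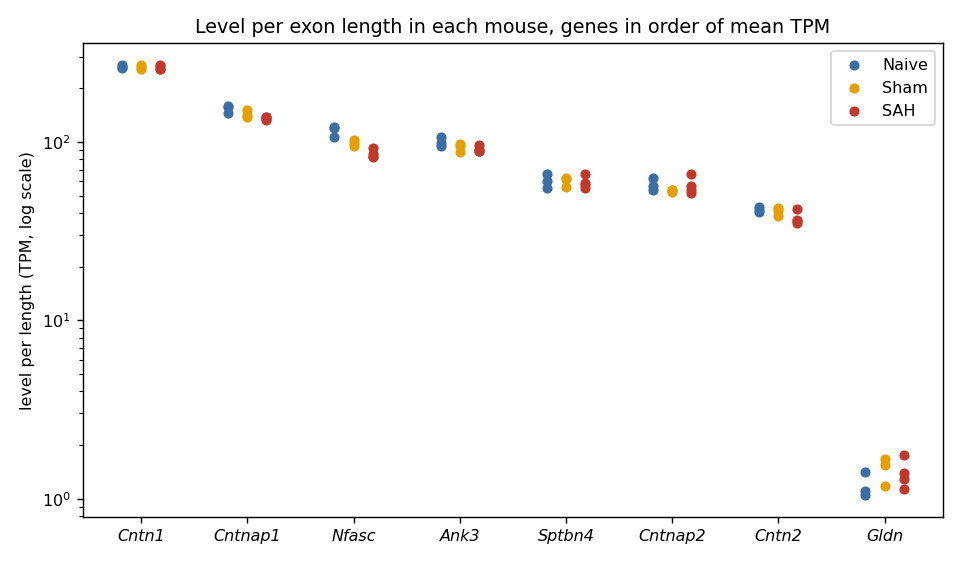
Level of each gene in each mouse in TPM (log axis), with the genes in order of their mean over 10 mice and 1 point per mouse, coloured by group. Cntn1 stands highest at 255.07 to 271.17 TPM, Nfasc and Ank3 overlap, Sptbn4 and Cntnap2 overlap, and Gldn lies far below the rest at 1.0459 to 1.7662 TPM.

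Nfasc, which encodes the neurofascin cell adhesion molecules of paranode, node and initial segment, was the 1 gene of the 8 called lower in SAH than in Control by edgeR. Its level in the SAH mice was 287.1, 296.7, 298.5 and 321.6 CPM. In the Sham mice it was 342.1, 330.6 and 361.2 CPM, and in the Naive mice 414.5, 421.7 and 372.4 CPM. Every Naive mouse was above every Sham mouse and every Sham mouse was above every SAH mouse, an order that 0.307% of the 14993 tested genes had and none of the other 7 genes had. The group means were 301.0 ± 14.6 CPM in SAH (SD, n = 4), 344.6 ± 15.4 in Sham (n = 3) and 402.9 ± 26.6 in Naive (n = 3), with 373.7 ± 37.4 in Control (n = 6). Compared with Control, Nfasc was lower by a log2 fold change of −0.31 (standard error 0.0668, 95% interval −0.46 to −0.17, adjusted p = 0.0248), a change of −19.4%. The tests are edgeR's quasi-likelihood test with Benjamini-Hochberg adjustment over all genes tested, and a gene is called past the threshold at an adjusted p under 0.1.

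With the Naive mice alone as reference Nfasc had a log2 fold change of −0.42 (95% interval −0.54 to −0.30, standard error 0.0555, adjusted p = 0.00278). Against the Sham mice the log2 fold change was −0.20 (95% interval −0.32 to −0.07, unadjusted p = 0.00405, adjusted p = 0.211) and did not pass the threshold, although it did with DESeq2 (adjusted p = 0.0862). The Sham mice differed from the Naive mice by −0.23 (95% interval −0.35 to −0.10) with an unadjusted p = 0.00245, and this did not pass the adjustment either (adjusted p = 1.0). These comparisons share mice, so they are not independent of each other. With each mouse left out in turn, Nfasc stayed past the threshold in 10 of 10 fits against Control (log2 fold change −0.35 to −0.27, adjusted p = 0.0158 to 0.0605) and in 10 of 10 against Naive (−0.47 to −0.38). Without SAH mouse 3 the value against Control was −0.31 (adjusted p = 0.0373), and without SAH mouse 4 it was −0.35 (adjusted p = 0.0435).

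Messages of mature oligodendrocytes were lower in SAH beside Nfasc. The summed level of 12 oligodendrocyte markers was 5080 to 6458 CPM in the SAH mice, 7452 to 10290 CPM in the Sham mice and 8539 to 9220 CPM in the Naive mice. SAH lay below both other groups, whose ranges overlapped. Of the 12 markers, 11 were lower in SAH than in Control, with a median log2 fold change of −0.556. Between Sham and Naive the median of the 12 was −0.045, and a count of calls says little there, since 0.00661% of all genes were called. Of the summed cell type levels, those of 6 thalamic markers (75.98 to 87.38 CPM in Sham and 89.58 to 116.2 CPM in Naive) and 6 interneuron markers (801.5 to 806.6 and 808.2 to 878.9 CPM) were also lower in every Sham than in every Naive mouse. In SAH these sums were 70.03 to 94.3 and 763.7 to 831.0 CPM and overlapped both Sham and Naive. The summed level of 10 neuronal markers was 8755 to 9130 CPM in SAH and 8801 to 9392 CPM in Control, and 1 of them, Syn1, was lower in SAH (log2 fold change −0.22, adjusted p = 0.0422). The part of these cell types and of thalamic tissue in the Nfasc result was not tested, and in bulk tissue fewer cells of a type and less RNA per cell cannot be told apart.

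**Figure D2:**
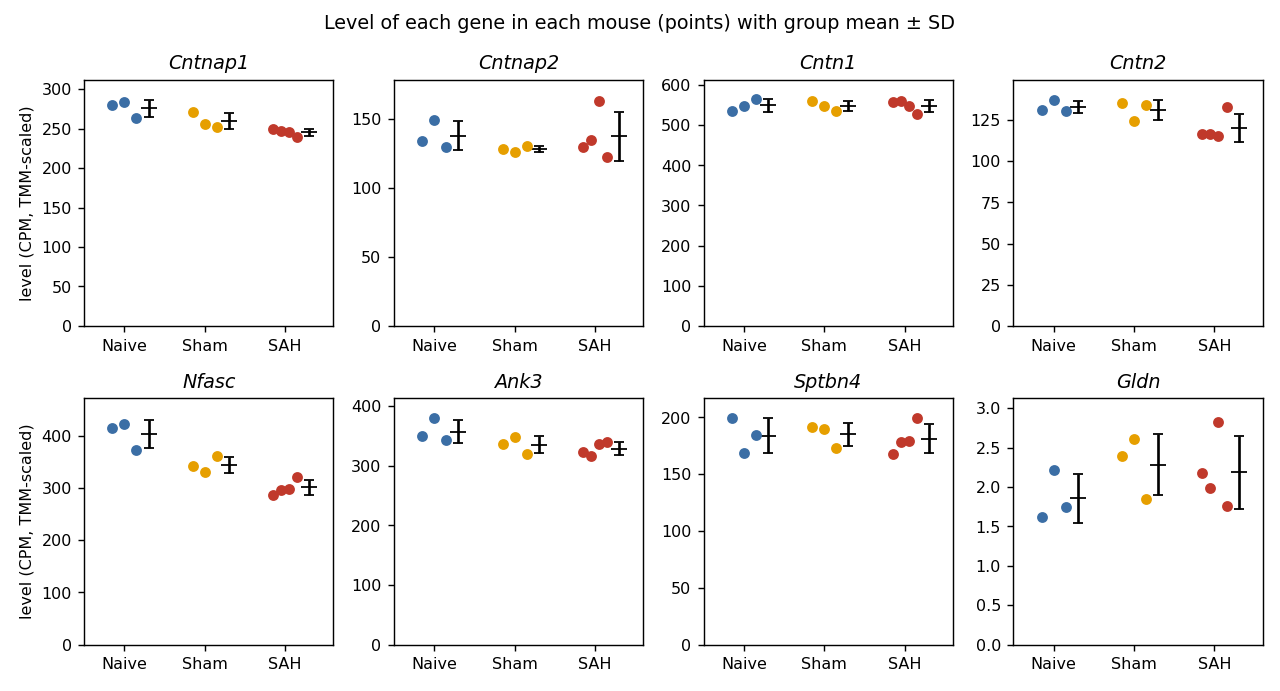
Level of each of the 8 genes in each mouse, in CPM after TMM scaling, with 1 point per mouse and the group mean ± SD beside the points, in Naive (n = 3), Sham (n = 3) and SAH (n = 4). Nfasc falls into separate groups from Naive (372.4 to 421.7) through Sham (330.6 to 361.2) to SAH (287.1 to 321.6), Cntnap1 has all SAH mice below all others by a small margin, and Cntn1 shows no such separation.

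Cntnap1 encodes Caspr, the axonal protein that forms the septate-like paranodal junction. Its level was 249.5, 246.5, 245.5 and 239.5 CPM in the SAH mice. It was 270.8, 256.2 and 252.0 CPM in the Sham mice and 279.6, 283.9 and 262.9 CPM in the Naive mice. All SAH mice were below all Control mice, a pattern that 2.37% of the tested genes had and that Nfasc alone of the other 7 shared. The margin was narrow, at 249.5 CPM in the highest SAH mouse and 252.0 CPM in the lowest Sham mouse. Against Control the log2 fold change of −0.13 (standard error 0.0401, 95% interval −0.21 to −0.04) did not pass the threshold (adjusted p = 0.126 from edgeR), while with DESeq2 it did (adjusted p = 0.0608). Cntnap1 was lower than in Naive by a log2 fold change of −0.17 (standard error 0.0438, edgeR adjusted p = 0.0826), a change of −11.0%. That call held in 4 of 10 fits with 1 mouse left out, and was lost without SAH mouse 2, SAH mouse 4, Sham mouse 6, Sham mouse 7, Naive mouse 8 or Naive mouse 9 (adjusted p up to 0.351). Against Sham the value was −0.08 (adjusted p = 0.583) and between Sham and Naive it was −0.09 (adjusted p = 1.0).

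Cntn1, the contactin that carries Caspr to the axon surface and binds glial neurofascin there, had the smallest estimated change of the 8 genes against Control. The SAH mice had 557.0, 559.3, 548.9 and 527.7 CPM, and the Sham mice had 559.1, 547.1 and 535.8 CPM. The Naive mice had 534.3, 548.5 and 566.2 CPM, and all 3 groups overlapped. The mean was 548.2 ± 14.4 CPM in SAH (n = 4) and 548.5 ± 12.6 CPM in Control (n = 6). The difference, −0.0544% of the Control level with a 95% interval of −4.69% to 4.81%, did not pass (adjusted p = 0.994). For Cntn1 the log2 fold change was 0.0018 against Sham, −0.0044 against Naive and −0.0062 between Sham and Naive, with none past the threshold.

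Set against its paranodal partners within each mouse, Nfasc ran lower from Naive through Sham to SAH, with overlap between neighbouring groups. The description was chosen after these values were seen. As Cntn1 hardly differed between groups, the ratio to it largely repeats the Nfasc values. The ratio of Nfasc to Cntn1 in CPM was 0.516, 0.531, 0.544 and 0.609 in the SAH mice, 0.612, 0.604 and 0.674 in the Sham mice and 0.776, 0.769 and 0.658 in the Naive mice. SAH mouse 4 and Sham mouse 6 overlapped on this ratio, as did Sham mouse 7 and Naive mouse 10. Relative to Cntnap1, the ratio ran from 1.15 to 1.34 in SAH, from 1.26 to 1.43 in Sham and from 1.42 to 1.49 in Naive.

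Neither gene of the juxtaparanodal pair passed the threshold with all mice. Cntn2, the contactin present on both the axon and the oligodendrocyte at the juxtaparanode, had 116.2, 116.4, 115.3 and 132.9 CPM in the SAH mice. The Sham mice had 135.2, 124.4 and 134.1 CPM and the Naive mice 131.1, 137.1 and 130.5 CPM. SAH mice 1 to 3 were thus below all Control mice and SAH mouse 4 was among them. The log2 fold change against Control was −0.13 (standard error 0.0467, 95% interval −0.24 to −0.03, adjusted p = 0.157). Without SAH mouse 4 it was −0.19 and past the threshold (adjusted p = 0.0436), as it was against Naive (−0.20, adjusted p = 0.0943). Against Sham it was −0.13 (adjusted p = 0.501) and between Sham and Naive −0.02 (adjusted p = 1.0) with all mice.

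Cntnap2 encodes Caspr2, the axonal partner of contactin-2, which is also found at synapses and along unmyelinated axons. The SAH mice had 129.7, 135.0, 163.3 and 122.5 CPM and the Sham mice 128.1, 126.4 and 130.6 CPM. The Naive mice had 134.0, 149.7 and 130.0 CPM. SAH mouse 3 and Naive mouse 9 were the high values of their groups and all groups overlapped. The log2 fold change against Control was 0.05 (95% interval −0.11 to 0.20, adjusted p = 0.764), and it was −0.04 without SAH mouse 3 (adjusted p = 0.811). For Cntnap2 the value was 0.10 against Sham, −0.0037 against Naive and −0.10 between Sham and Naive, with none past the threshold.

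The nodal scaffold did not pass the test in any comparison. Ank3, whose ankyrin-G clusters sodium channels and neurofascin, had 322.4, 317.1, 336.9 and 339.9 CPM in the SAH mice. It had 337.1, 348.8 and 319.9 CPM in the Sham mice and 349.5, 379.6 and 343.4 CPM in the Naive mice. Every SAH mouse was below every Naive mouse, as in 6.8% of the genes tested, whereas SAH and Sham overlapped. The log2 fold change was −0.07 against Control (95% interval −0.17 to 0.02, adjusted p = 0.431) and −0.12 against Naive (95% interval −0.23 to −0.01, adjusted p = 0.273), −0.03 against Sham and −0.09 between Sham and Naive. Sptbn4, the spectrin that ties ankyrin-G to actin, had 167.9, 178.4, 179.4 and 199.0 CPM in SAH, 191.9, 190.1 and 173.3 CPM in Sham and 199.0, 168.7 and 184.1 CPM in Naive. Each group spanned much the same range, and the value against Control was −0.03 (95% interval −0.15 to 0.09, adjusted p = 0.836), or −0.07 to 0.01 with each mouse left out in turn. For Sptbn4 the log2 fold change was −0.03 against Sham, −0.02 against Naive and 0.01 between Sham and Naive, with none past the threshold.

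Gldn had 41 to 71 counts per mouse, or 1.6172 to 2.8293 CPM, with the groups overlapping. Its log2 fold change against Control was 0.07 with a wide interval of −0.32 to 0.46 (adjusted p = 0.876), and it was −0.07 without SAH mouse 3 (adjusted p = 0.916). For Gldn the value was −0.08 against Sham, 0.24 against Naive and 0.31 between Sham and Naive, with none past the threshold. Schwann cell markers, which would come with peripheral nerve, summed to 92.91 to 102.8 CPM in SAH and 95.25 to 101.0 CPM in Control, with 4 of 6 markers tested and 0 past the threshold.

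Over the 4 comparisons, the 8 genes were all tested and the calls were few. Against Control, 1 of 8 (Nfasc) was called, and it was lower. The background was 4.68% of 14993 genes called in either direction and 1.54% called lower. The median log2 fold change was −0.05 over the 8 genes and −0.002 over all genes tested. Against Naive, 2 of 8 (Nfasc and Cntnap1) were called lower, where 2.99% of 15134 genes were called and 0.965% were called lower, with medians of −0.071 and 0. Against Sham, 0 of 8 were called where 0.72% of genes were, and 2 of 8 (Nfasc and Cntn2) had an unadjusted p under 0.05, as 9.69% of all genes did, with medians of −0.053 and −0.002. Between Sham and Naive, 0 of 8 were called where 1 gene in all, or 0.00661%, was, and 1 of 8 (Nfasc) had an unadjusted p under 0.05, as 2.02% of all genes did. DESeq2, which called more genes in all, called 2 of 8 against Control (6.42% of all genes with an adjusted p), 2 against Naive (4.56%), 1 against Sham (1.91%) and 0 between Sham and Naive (0.0102%). By p-value Nfasc ranked 236 of 14993 genes against Control, and of 15134 genes it ranked 290 against Sham, 28 against Naive and 12 between Sham and Naive. Against Control 6 of the 8 estimates were below 0, the exceptions being Cntnap2 and Gldn.

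**Figure D3:**
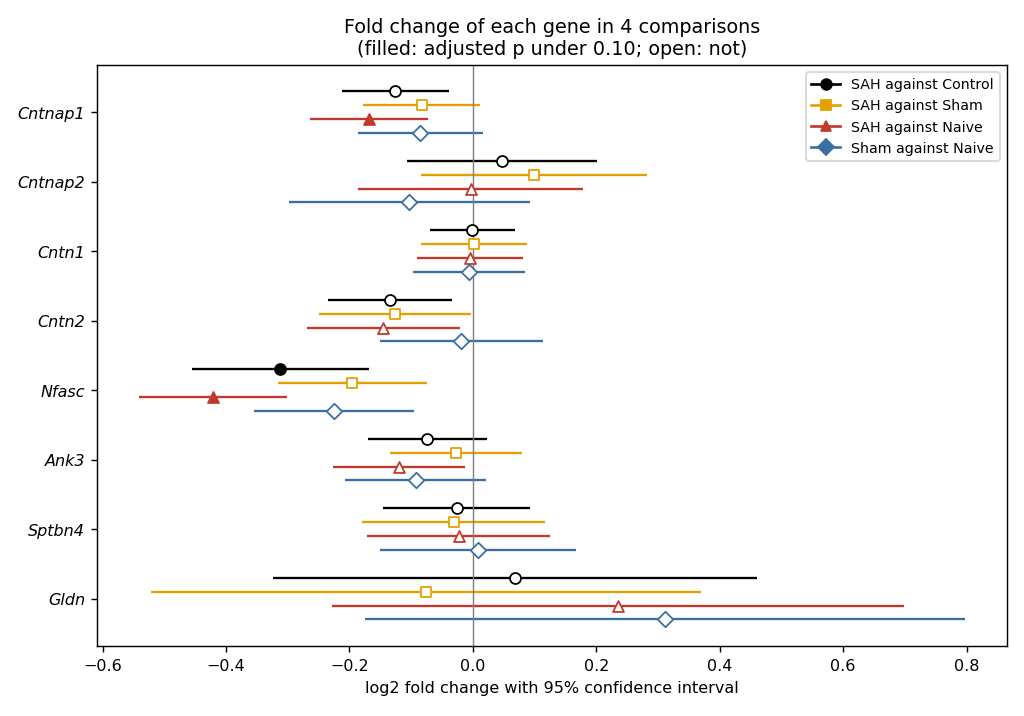
Log2 fold change of each gene with its 95% confidence interval in 4 comparisons that share mice, SAH against Control, Sham and Naive and Sham against Naive, where filled symbols passed an adjusted p under 0.1 in edgeR and open symbols did not. Nfasc is filled against Control (−0.31) and Naive (−0.42), Cntnap1 is filled against Naive (−0.17), Cntn1 sits at 0 with a narrow interval, and Gldn has the widest intervals.

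Around these 8 genes, 33 further genes of the node region were tested. Of these, 2 were lower in SAH than in Control and 0 were higher, with a median log2 fold change of −0.018. Over all genes 4.68% were called and 1.54% were called lower. Both calls fell among the 3 oligodendrocyte connexin genes of the set, and the other lists in it had 0. One of the 2 called was Gjc3, a connexin gene of the oligodendrocyte lineage. Gjc3 was at 40.86 ± 3.0 CPM in SAH (36.48 to 43.23) and 59.24 ± 5.82 CPM in Control (50.89 to 65.21), with a log2 difference of −0.535 ± 0.0753 (standard error) and an adjusted p = 0.00325, and it was also lower against Sham (−0.48, adjusted p = 0.0471) and Naive (−0.59, adjusted p = 0.00523). SAH and Control did not overlap.

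No gene of the channels that cluster at node and juxtaparanode was called between SAH and Control. With 4.68% of all genes called, 0 calls among so few genes say little. Among 10 nodal channel genes 0 were called and the median was 0.007. Their log2 fold changes ran from −0.16 (95% interval −0.28 to −0.04) to 0.21 (95% interval 0.06 to 0.37), so the median covers shifts both ways. Scn8a, the main sodium channel of mature nodes, was at 469.2 ± 18.1 CPM in SAH and 471.2 ± 31.0 CPM in Control (log2 fold change −0.01, 95% interval −0.11 to 0.10, adjusted p = 0.963). Among 8 juxtaparanodal channel and scaffold genes 0 were called and the median was −0.025. Their log2 fold changes ran from −0.20 (95% interval −0.36 to −0.03) to 0.08 (95% interval −0.03 to 0.19). The potassium channels Kcna1 (−0.02, 95% interval −0.13 to 0.09) and Kcna2 (0.00, 95% interval −0.09 to 0.10) had adjusted p = 0.889 and 0.997.

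Of 6 nodal matrix and adhesion genes 0 were called (median 0.067). Nrcam, the neurofascin relative that shares the node with it, was at 608.5 ± 13.4 CPM in SAH and 582.7 ± 19.9 CPM in Control (log2 fold change 0.06, adjusted p = 0.375). Of 6 paranodal and nodal cytoskeleton genes 0 were called (median −0.091), among them Epb4.1l3, which encodes the protein 4.1B that links Caspr and Caspr2 to the cytoskeleton (−0.10, 95% interval −0.19 to −0.01, adjusted p = 0.222). Of 16 relatives of the 8 genes, such as other contactins, Caspr proteins and spectrins, 0 were called and the median was −0.038. The medians of these lists are set beside −0.002 over all genes tested, and their counts beside the 4.68% of all genes called. At that share, 0 calls in lists this short say little.

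**Figure D4:**
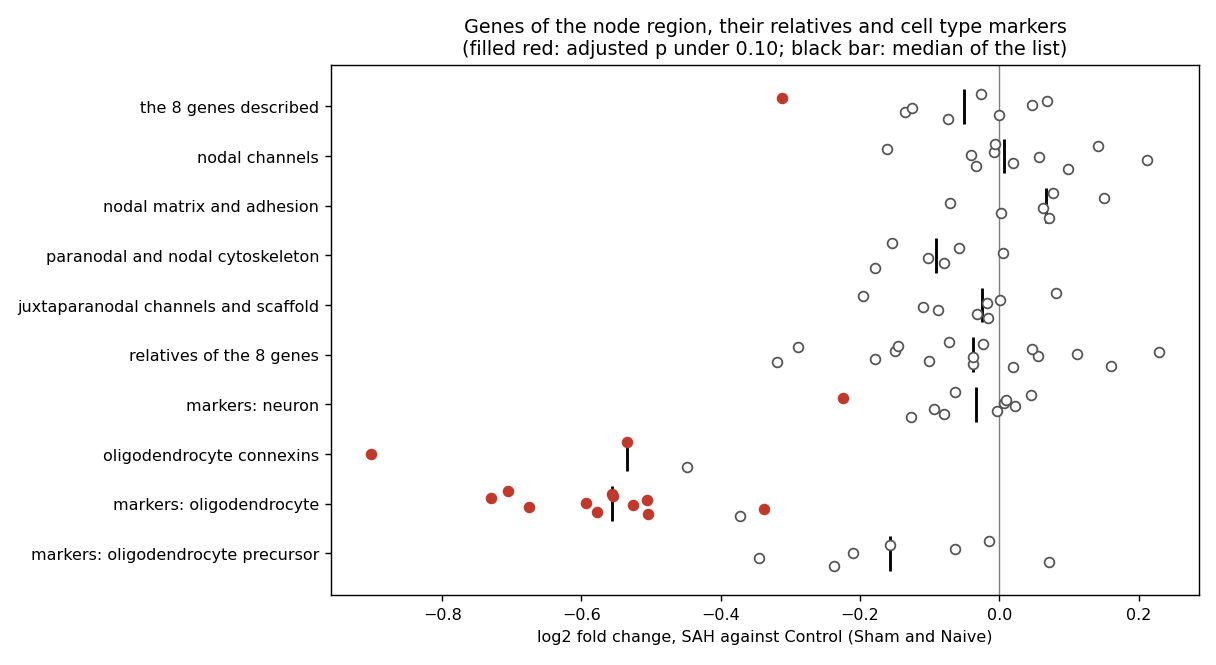
Log2 fold change of SAH against Control for the 8 genes, for lists of other node genes and relatives and for markers of neurons and the oligodendrocyte lineage, with 1 circle per gene, filled in red where the adjusted p was under 0.1, and a black bar at the median of the list. The oligodendrocyte markers (median −0.556) and connexins (median −0.535) lie to the left. The nodal channels, the juxtaparanodal channels and scaffold and the neuronal markers have medians of 0.007, −0.025 and −0.034, with single genes on both sides of 0. Nfasc is the 1 filled circle among the 8 genes.

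Markers of other cell types were measured in the same libraries. In SAH against Control, 0 of 7 oligodendrocyte precursor markers, 0 of 6 thalamic, 0 of 7 choroid plexus and 0 of 4 ependymal markers were called. The share called over all genes was 4.68%. The precursor markers still had a median log2 fold change of −0.157. They summed to 198.6 to 227.6 CPM in SAH and 225.0 to 263.4 CPM in Control. Of 6 interneuron markers 1, Sst, was lower in SAH than in Control (−0.27, adjusted p = 0.0333). Of 7 meningeal fibroblast markers 6 were higher, as were 3 of 6 endothelial markers (Pecam1, Flt1 and Cdh5), 2 of 6 microglial markers (Csf1r among them) and 1 of 7 astrocyte markers, Gfap. The summed meningeal fibroblast level was 95.34 to 180.1 CPM in SAH and 89.55 to 120.6 CPM in Control. The summed choroid plexus level varied from mouse to mouse, at 104.3 to 1254 CPM in SAH, 58.53 to 839.6 CPM in Sham and 45.2 to 69.2 CPM in Naive. Against Naive, where Nfasc and Cntnap1 were both called, 2 of 7 choroid plexus markers were higher in SAH (Kcnj13 among them, 3.64, adjusted p = 0.0363) with a median log2 fold change of 2.297, and 0 of 6 thalamic markers were called with a median of −0.252. Of the oligodendrocyte markers Mbp was the most abundant, at 2706 ± 268 CPM in SAH and 4082 ± 489 CPM in Control, and Aspa was the 1 marker not called. Their part in the changes of the 8 genes was not tested.

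Within groups, no correlation between known partners among the 8 genes passed adjustment. In 7 partner pairs, deviations of log2 CPM from the group means were correlated over 10 mice, with a 2-sided exact permutation test of 864 orders whose smallest p is 0.00116. Cntn1 and Nfasc had a Pearson r of −0.821 (p = 0.0301, exact permutation) and a Spearman rho of −0.782 (p = 0.0382, exact permutation), so that mice high in one were low in the other. After adjustment over the 7 pairs neither passed (adjusted p = 0.211 and 0.267), and r was −0.658 without the 2 mice farthest from the median of Cntn1. The other 6 pairs had r of −0.326 to 0.299 (exact permutation, adjusted p = 0.791 for each).

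The genes whose levels over the 10 mice were most like those of the 8 are given by Pearson's r of log2 CPM, as a description, since the mice share group differences and library composition. For Nfasc they were Sema4d (r = 0.953), Foxn3 (0.944) and Fosb (0.943). For Cntnap1 they were Rusc2 (0.973), Ptprf (0.962) and Dpysl5 (0.949), for Cntn2 Ube4a (0.93), Susd5 (0.918) and Kazn (0.917), and for Ank3 Ncam1 (0.934), Nlgn3 (0.921) and Clip3 (0.906). Cntn1 was most like Bend6 (0.944), Wnt2b (0.929) and Hdgfrp3 (0.92), and Cntnap2 most like Samd8 (0.967), Dio2 (0.937) and Plaa (0.936). Sptbn4 was most like Mbd6 (0.957), Csf2ra (0.939) and 1700029J07Rik (0.934), and Gldn most like Ergic3 (0.904), Spryd3 (0.893) and 2900097C17Rik (0.892). No gene of the fixed lists was among these 24. Each r was also taken without the 2 mice farthest from the median of the gene described. It was then 0.584 to 0.821 for Cntnap2, 0.696 to 0.788 for Ank3 and 0.774 to 0.794 for Gldn. For the rest it was 0.828 to 0.959. Wnt2b had a mean of only 0.629 CPM.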

How the data were processed

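RNA was sequenced from 10 mouse hippocampus libraries, 1 per mouse. The authors removed ribosomal RNA, sequenced stranded libraries in 50-base pairs, aligned them to mm9 with STAR and counted unambiguous, uniquely mapped pairs on the exons of each gene name (UCSC annotation) with featureCounts 1.6.2. The deposited values are these raw counts, without normalization, with the exon length of each gene, and the aligner's version is not given in the sources used here. From them CPM (TMM-scaled), TPM and RPKM were computed here.

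Genes were kept by filterByExpr (minimum count 10, minimum total 15) and compared with edgeR 4.0.16 in R 4.3.3, by the quasi-likelihood test with Benjamini-Hochberg adjustment over all genes tested and a threshold of 0.1. SAH against Control used the 10 mice as 2 groups, and each pair of groups was compared within 1 fit of all 3. The standard error is the log2 fold change divided by the square root of F. The fit was first tested on simulated data. Alternatives were DESeq2 1.42.0, other normalizations, filters and thresholds, a robust fit, other groupings and each mouse left out. The deposited tables were checked against NCBIM37, which is mm9, on 21 chromosomes with 0 having an exon beyond its end, and sequences were read from that genome. Python 3.11.15 with scipy 1.17.1 was used for the permutation tests.

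The 8 genes and all lists were chosen with earlier results of these data known, and the hippocampal list was added after the other values were seen. Genes named are the 8 genes in every comparison, other node genes past the threshold in SAH against Control, Scn8a, Kcna1, Kcna2, Nrcam and Epb4.1l3, called markers, the most abundant oligodendrocyte marker and the 3 genes most like each of the 8. Aspa and the 6 hippocampal genes were named after their values were seen. Some genes under this rule are not reported here. Columns of positions were used as given. Intervals between mice include counting error, and any limit at low counts covers counting error only.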

Additional observations from a re-analysis of the deposited data

Results flagged for a closer look

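Among 16 groups of 4 or 6 mice examined for a mouse far from the others of its group, 2 stood out, and chance marks about 1 in 20 such groups. Cntn2 in SAH mouse 4 was at 132.9 CPM where the other SAH mice were at 115.3 to 116.4 CPM, a gap of 0.939 of the group's whole range (Dixon's critical value for 4 mice is 0.829). Cntnap2 in Naive mouse 9 was at 149.7 CPM, a gap of 0.673 of the range of the 6 Control mice (critical value 0.625).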

How the results depend on the processing

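The counts of the 8 genes called changed in the following ways. DESeq2 called 2 against Control (Nfasc and Cntnap1) in place of 1, and 1 against Sham (Nfasc) in place of 0. Against Naive, 1 gene in place of 2 was called with library size alone, with only the SAH and Naive mice in the fit, and at an adjusted p under 0.05, and the gene lost was Cntnap1 each time. With 1 mouse left out, 1 to 2 genes were called against Control (2 without SAH mouse 4, where Cntn2 was added, and without Sham mouse 7, where Cntnap1 was added) and 1 to 2 against Naive. The count was 0 between Sham and Naive under all alternatives run. Of 544 single fold changes under alternatives, 0 changed sign past the threshold, 494 kept their sign and side of it, 8 fell out, 5 came in and 37 changed sign while past it in neither fit. The causes were not tested. No paired analysis was possible because the mice are numbered 1 to 10 and no number is shared between groups. Gldn rested on few counts, 41 to 71 per mouse, and how much of its wide interval is counting error was not tested.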
